A study of Homo sapiens with 8 samples.

Results

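*POU3F2*, *RGS4* and 5 further genes for regulators of G-protein signalling (*RGS2*, *RGS5*, *RGS10*, *RGS16* and *RGS20*) were examined by RNA-seq in PNT2, human prostate epithelial cells that were immortalized. *POU3F2* and *RGS4* were picked because they were raised in the libraries labelled *ERF* KD alone, so their differences between groups are a description and carry no test. The 5 further *RGS* genes were added for comparison. These 7 genes are drawn from the 33791 genes to which the deposited counts could be assigned, and 7 of 7 passed the filter on low counts (14653 genes tested). The study asked how loss of *ERF* and *CIC*, neighbouring genes that encode transcriptional repressors, alters prostate cells. The libraries form 4 groups of 2 (replicates A and B): WT cells, cells labelled *ERF* KD (*ERF* silenced by short hairpin RNA), cells labelled *CIC* KO (*CIC* disrupted by a guide RNA and Cas9), and cells with both losses, labelled *CIC-ERF* codeletion and called *ERF* KD + *CIC* KO here. All are derivatives of this single immortalized line. The study's methods describe single-loss lines with either of 2 hairpins or of 2 guides, and double lines that combine the hairpin shERFA1 with either guide, and which of these lines each library came from is not given in the sources used here. Nothing says that replicates A and B were separate cultures, so the p-values measure the spread between these libraries, which may be technical.

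POU3F2 (also known as BRN2) is a POU-domain transcription factor of the developing nervous system and has been linked to neuroendocrine differentiation of prostate cancer. G protein-coupled receptors signal through a heterotrimer of a G alpha subunit with G beta and gamma subunits. RGS proteins accelerate GTP hydrolysis by the G alpha subunit and so end the signal. They fall into subfamilies by sequence: the R4 family (here *RGS2*, *RGS4*, *RGS5* and *RGS16*) has small members, the R12 family includes *RGS10*, the RZ family includes *RGS17* and *RGS20*, and R7 members such as *RGS7* work in a complex with the G beta 5 subunit. ERF binds GGAA motifs as an ETS-family repressor, and CIC binds octamers of the kind TGAATGAA.

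The libraries held 19477473 to 25813157 estimated counts, of which 93.21% to 93.34% fell on annotated genes. Levels are given as CPM, counts per 1000000 after TMM scaling, and 3 counts in a library, taken here as the floor of detection, were worth 0.127 to 0.169 CPM. The level of *ERF* went against the labels of the single-loss groups. It was at 55.8 and 55.9 CPM in WT replicates A and B, at 81.2 and 77.7 CPM in the libraries labelled *ERF* KD, at 18.8 and 11.7 CPM in those labelled *CIC* KO and at 11.6 and 10.4 CPM in *ERF* KD + *CIC* KO. The file names of both single-loss groups also carry letters opposite to their labels, whereas the study's methods state that the stable lines were checked for ERF and CIC by qPCR and western blot. The labels were kept, and each direction below is that of the libraries labelled so. Disruption by Cas9 need not lower mRNA, and *CIC* read 108.4 and 108.9 CPM in the libraries labelled *ERF* KD and 131.9 and 131.3 CPM in those labelled *CIC* KO. The epithelial markers that define the line were lower in the libraries labelled *ERF* KD than elsewhere: the 8 listed genes summed to 1644 to 2106 CPM there, against 3792 to 4632 CPM in WT, 4048 to 5208 CPM in the libraries labelled *CIC* KO and 3930 to 5033 CPM in *ERF* KD + *CIC* KO. *TP63*, a basal marker among them, was at or under the floor in both WT libraries. In bulk libraries fewer cells of a type and less RNA per cell cannot be told apart. These libraries therefore stand apart in more than the genes described here, and the part of the marker change in any result below was not tested.

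*POU3F2* was close to the floor in every library except those labelled *ERF* KD. The gene (ENSG00000184486) lies on the plus strand of chromosome 6 (chr6:98834592-98839470, GRCh38) and has a single annotated transcript. It had 4 and 4 counts in WT, then 323 and 310 in the libraries labelled *ERF* KD, 5 and 10 in those labelled *CIC* KO, and 5 and 0 in *ERF* KD + *CIC* KO. In CPM these are 0.190 and 0.204, then 15.5 and 15.4, then 0.232 and 0.481, and then 0.212 and 0. The libraries labelled *ERF* KD were thus far above the other 6, with an SD of 0.0818 CPM (n = 2). The libraries labelled *CIC* KO lay above those of WT, at 1.80 times over the summed counts (95% interval 0.718 to 4.91), from 5 and 10 counts against 4 and 4. Over the summed counts the group labelled *ERF* KD was at 78.6 times the level of WT (95% interval 39.6 to 183). It was at 43.6 times that of the libraries labelled *CIC* KO (26.2 to 78.3) and 128 times that of *ERF* KD + *CIC* KO (54.5 to 395). These intervals are exact and cover counting error only, so they are no test of a difference between groups. The gene passed the filter on low counts through the 2 libraries labelled *ERF* KD alone. In the double line *POU3F2* had 5 counts in replicate A and 0 in replicate B, which allows a level of up to 0.169 CPM at 3 counts.

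*RGS4*, whose R4-family product acts on Gi and Gq type alpha subunits, was measured in all 8 libraries and was highest in those labelled *ERF* KD. It (ENSG00000117152) lies on the plus strand of chromosome 1 (chr1:163068775-163076802). Its counts were 33 and 53 in WT, then 570 and 1209 in the libraries labelled *ERF* KD, 46 and 87 in those labelled *CIC* KO, and 21 and 9 in *ERF* KD + *CIC* KO. The levels were 1.57 and 2.70 CPM, 27.4 and 60.0 CPM, 2.14 and 4.18 CPM, and 0.888 and 0.507 CPM in the same order. The group labelled *ERF* KD did not overlap with any other. Its lowest library was 10.1 times the highest WT library, 6.54 times the highest library labelled *CIC* KO and 30.8 times the highest *ERF* KD + *CIC* KO library. Replicates spread far more than for *POU3F2*, with 43.7 ± 23.1 CPM (SD, n = 2) in the group labelled *ERF* KD. The summed counts there were 20.5 times those of WT (16.5 to 25.8, counting error only) after scaling. The 2 libraries of *ERF* KD + *CIC* KO lay below both WT libraries (0.343 of the WT level, 0.219 to 0.525, counting error only), whereas those labelled *CIC* KO overlapped with WT (1.49 times, 1.13 to 1.97).

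**Figure D1:**
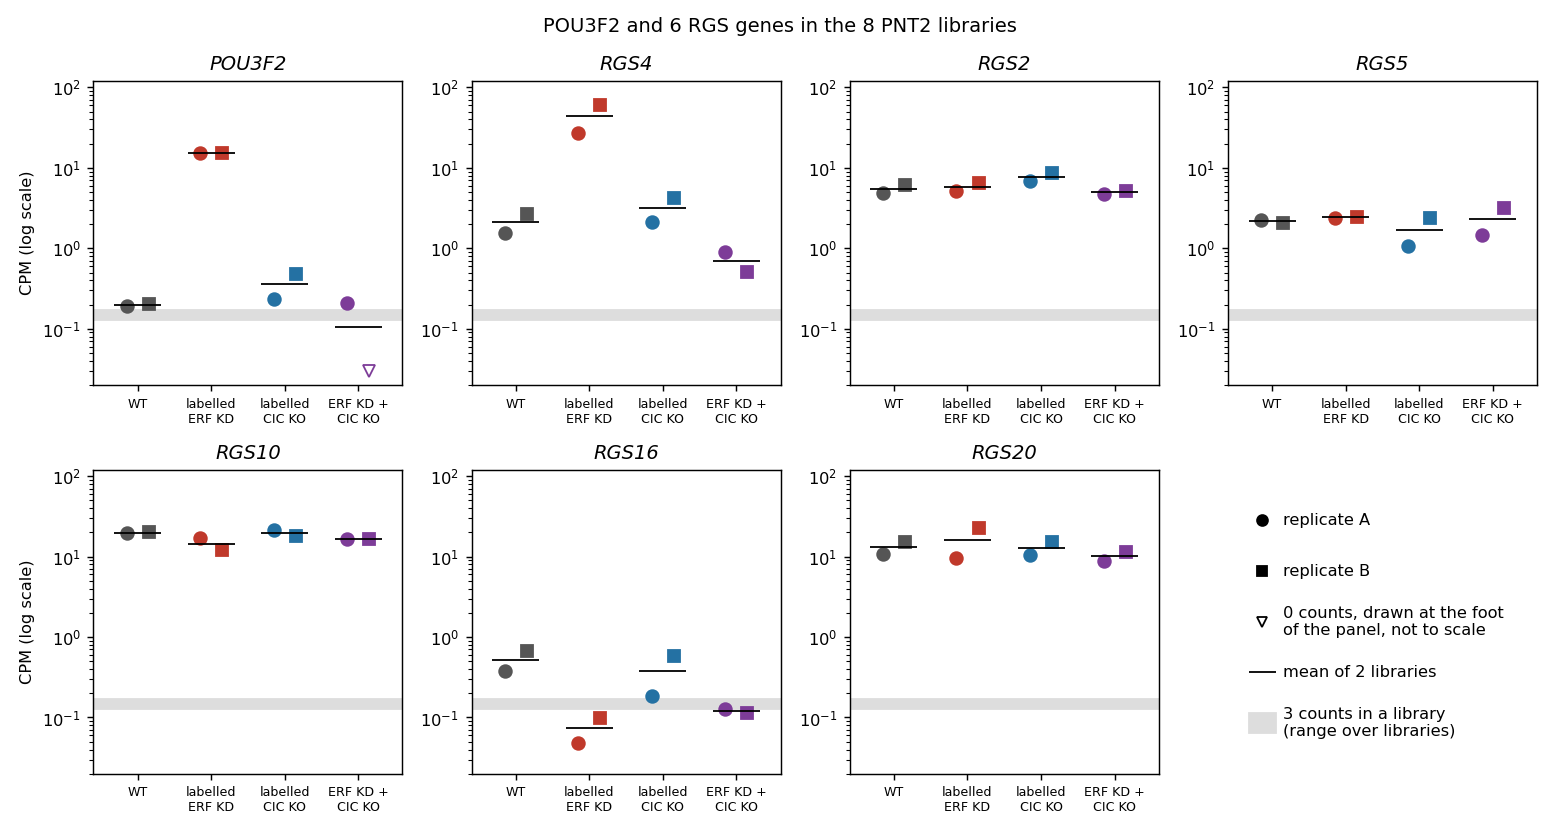
Level of *POU3F2* and the 6 *RGS* genes in each library, in CPM on a log axis, with circles for replicate A, squares for replicate B, a line at the mean of 2 libraries and a grey band at 3 counts. *POU3F2* (15.5 and 15.4 CPM) and *RGS4* (27.4 and 60.0 CPM) stood above all other libraries in the group labelled *ERF* KD, while *RGS16* was at or under the floor there.

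On the fitted log2 scale the group labelled *ERF* KD was above WT by 6.25 for *POU3F2* and 4.36 for *RGS4*. The group labelled *CIC* KO was above WT by 0.83 and 0.57, and *ERF* KD + *CIC* KO differed from WT by -0.71 and -1.57. The interaction, which sets the step from the labelled *CIC* KO group to the double line against the step from WT to the labelled *ERF* KD group, was -7.80 for *POU3F2* and -6.49 for *RGS4*. With 5 and 0 counts in the double line, the *POU3F2* values there rest on single libraries: without its replicate A the difference from WT was -5.04 and the interaction -12.11, and without its replicate B they were 0.10 and -6.99. These comparisons share the WT or the labelled *ERF* KD libraries, and the values are those the genes were picked on.

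Sequences before the start sites of both picked genes are shown because the repressors at issue bind short DNA motifs, with that of *RGS2*, an R4 relative that was not called in any comparison, beside them. They are from the RefSeq promoter table (GRCh38.p14), written 5′ to 3′ on the strand of the gene, without bases in annotated exons. Capitals mark GGAA or its reverse complement TTCC, and in the second *RGS4* stretch also the CIC octamer TGAATAAA.
*POU3F2*, chr6:98834324-98834573: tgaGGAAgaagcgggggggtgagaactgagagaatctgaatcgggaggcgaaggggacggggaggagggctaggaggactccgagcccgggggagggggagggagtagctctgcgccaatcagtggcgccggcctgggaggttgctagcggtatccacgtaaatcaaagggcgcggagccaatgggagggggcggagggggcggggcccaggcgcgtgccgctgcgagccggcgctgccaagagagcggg
*RGS4*, chr1:163068621-163068774: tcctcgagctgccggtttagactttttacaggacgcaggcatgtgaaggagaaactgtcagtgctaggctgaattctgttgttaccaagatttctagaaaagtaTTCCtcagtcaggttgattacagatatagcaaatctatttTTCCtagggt
*RGS4*, chr1:163069015-163069144: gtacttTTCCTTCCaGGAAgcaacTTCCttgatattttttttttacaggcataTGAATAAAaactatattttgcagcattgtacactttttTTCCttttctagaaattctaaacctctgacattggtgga
*RGS2*, chr1:192808789-192809038: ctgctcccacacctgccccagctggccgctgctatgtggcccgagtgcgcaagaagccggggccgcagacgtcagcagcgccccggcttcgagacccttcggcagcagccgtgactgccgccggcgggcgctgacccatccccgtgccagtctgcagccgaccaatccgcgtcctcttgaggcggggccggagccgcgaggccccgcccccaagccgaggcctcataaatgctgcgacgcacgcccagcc

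The table gave 11 windows of 250 bases for 6 of the 7 genes, and none was used for *RGS20*. A CIC octamer (TGAATGAA, TGAATAAA, TCAATGAA or TCAATAAA on either strand) was found in 1 of the 11 windows, that of the *RGS4* start at position 163069254, where TGAATAAA begins 186 bases upstream (offset -186). The share among all 35116 windows was 4.0%. GGAA was in 10 of 11 windows and in 92.7% of all windows. It occurred 1 time in the *POU3F2* window, 8 times in that *RGS4* window and nowhere in the *RGS2* window. In the other *RGS4* windows it occurred 3, 2 and 5 times. The windows of the other comparison genes, which were not called either, held it 7 and 5 times (*RGS5*), 1 and 4 times (*RGS10*) and 2 times (*RGS16*). The number of GGAA thus did not separate the picked genes from the comparison genes. The longer ETS motif CCGGAAGT (3.42% of all windows) and the cAMP response element TGACGTCA (1.65%) were in 0 of 11. Such matches describe the letters in these windows and do not show binding.

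The *RGS4* counts of the libraries labelled *ERF* KD were spread over several of its annotated transcripts. The files hold 10 *RGS4* transcripts, of which 6 took at least 5% of the counts in some group. *RGS4-203*, which begins at position 163069145, held 57.0% of the *RGS4* counts in WT, 52.4% in the group labelled *ERF* KD and 54.3% in that labelled *CIC* KO, and none in *ERF* KD + *CIC* KO. In the libraries labelled *ERF* KD it had 399 and 533 estimated counts, and *RGS4-202*, which begins at position 163069361, had 72.5 and 319. Counts favour long transcripts. In TPM *RGS4-203* was 35.7% of *RGS4* in labelled *ERF* KD replicate A, the largest part. In replicate B it was 18.4%, behind *RGS4-209* (27.9%) and *RGS4-207* (26.3%). In WT replicate A it was 24.5%, behind *RGS4-201* (38.0%) and *RGS4-209* (35.2%), and in WT replicate B it was the largest part at 30.7%. The assignment was unsteady at low counts: *RGS4-203* had 0.0331 and 72.2 estimated counts in the 2 libraries labelled *CIC* KO, while *RGS4-202* had 21.6 and 0. These shares are kallisto's division of reads between overlapping transcripts, and the gene sum does not depend on it.

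**Figure D2:**
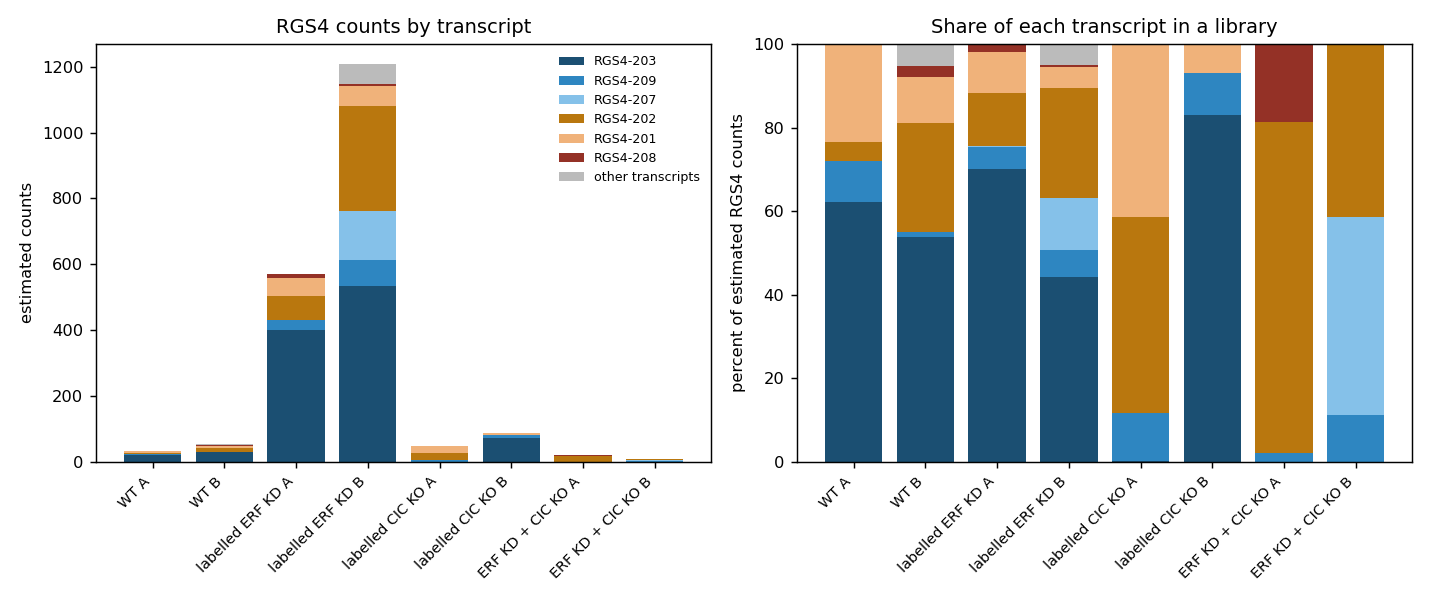
Estimated *RGS4* counts of each transcript in each library (left) and their percentage of all *RGS4* counts in that library (right). By counts, not corrected for transcript length, *RGS4-203* was the largest part in both libraries labelled *ERF* KD (399 and 533 counts) and in WT. It had no counts in *ERF* KD + *CIC* KO, whose libraries held 21 and 9 *RGS4* counts in all.

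None of the 5 comparison genes passed the test (edgeR quasi-likelihood, Benjamini-Hochberg adjusted p under 0.05 over 14653 genes) in any of 6 comparisons. In the same fit 10.1% of genes were called in the labelled *ERF* KD group against WT (4.01% higher and 6.07% lower), 0% in the labelled *CIC* KO group against WT (587 genes at an unadjusted p under 0.05, and 26 called by DESeq2) and 0.0682% in *ERF* KD + *CIC* KO against WT (0.00682% higher and 0.0614% lower). The share was 9.40% in the labelled *ERF* KD against the labelled *CIC* KO group, 11.7% in the labelled *ERF* KD group against *ERF* KD + *CIC* KO and 4.15% in the interaction. With the replicate letter as a block the numbers of genes called in these 6 comparisons were 2671, 1, 365, 2424, 3014 and 1400, in place of 1477, 0, 10, 1377, 1709 and 608, and still none of the 5 genes was called.

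*RGS2*, an R4 member with a preference for Gq, was near its WT level in the libraries in which its relative *RGS4* was high. It (chr1:192809039-192812283, plus strand) was at 4.84 and 6.17 CPM in WT, 5.14 and 6.45 CPM in the libraries labelled *ERF* KD, 6.83 and 8.75 CPM in those labelled *CIC* KO and 4.74 and 5.18 CPM in *ERF* KD + *CIC* KO. The libraries labelled *CIC* KO were the 2 highest and did not overlap with WT. The log2 differences from WT were 0.07 ± 0.27 (SE) in the group labelled *ERF* KD, 0.50 ± 0.27 in that labelled *CIC* KO and -0.15 ± 0.27 for the double line, with edgeR adjusted p of 0.900, 0.9997 and 0.845. Over the summed counts the group labelled *ERF* KD was at 1.055 times WT (0.875 to 1.27, counting error only).

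*RGS5*, an R4 member known as a pericyte marker, is the nearest *RGS* gene to *RGS4* and was low in all groups. It (chr1:163111121-163321791, minus strand) was at 2.28 and 2.09 CPM in WT, 2.40 and 2.48 CPM in the libraries labelled *ERF* KD, 1.07 and 2.36 CPM in those labelled *CIC* KO and 1.48 and 3.16 CPM in *ERF* KD + *CIC* KO. Both libraries labelled *ERF* KD lay just above both WT libraries, and those of the other groups overlapped with WT. The log2 difference of the group labelled *ERF* KD from WT was 0.16 ± 0.50 (edgeR adjusted p = 0.882), within its error. Between 36.9% and 62.9% of its counts per group were on *RGS5-203*, a processed transcript with no annotated protein. Another annotated gene of that name, which has no transcript in the files, lies on the same strand and has 534 exonic bases in common with it, and reads of either could be counted here.

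*RGS10*, the small R12 member, was the most abundant of the comparison genes in WT. It (chr10:119499828-119542708, minus strand) was at 19.5 and 19.9 CPM in WT, 17.0 and 11.96 CPM in the libraries labelled *ERF* KD, 21.2 and 18.1 CPM in those labelled *CIC* KO and 16.4 and 16.6 CPM in *ERF* KD + *CIC* KO. Both libraries labelled *ERF* KD and both of *ERF* KD + *CIC* KO lay below both WT libraries. The log2 difference of -0.44 ± 0.20 in the former did not pass the test (unadjusted p = 0.0600, edgeR adjusted p = 0.226, and 0.119 with the replicate block), nor did that of -0.26 ± 0.20 in *ERF* KD + *CIC* KO (adjusted p = 0.608). Its main transcript, *RGS10-202*, took 81.0% to 85.6% of its counts in each group.

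*RGS16*, an R4 member that acts on Gi and Gq, was near the floor throughout. It (chr1:182598623-182604408, minus strand) had 8 and 13 counts in WT, then 1 and 2 in the libraries labelled *ERF* KD, 4 and 12 in those labelled *CIC* KO, and 3 and 2 in *ERF* KD + *CIC* KO. Both libraries labelled *ERF* KD and both of *ERF* KD + *CIC* KO were thus at or under the floor of 3 counts. The summed counts in the group labelled *ERF* KD were 0.142 of those in WT (0.0271 to 0.475, counting error only), and the fitted difference had an unadjusted p of 0.0172 and an edgeR adjusted p of 0.106 (0.0675 with the replicate block). In *ERF* KD + *CIC* KO the ratio was 0.234 (0.0690 to 0.638) and the adjusted p 0.357. The gene passed the filter on low counts through 2 libraries only, WT replicate B and labelled *CIC* KO replicate B. It was thus tested only because it was high in these, so its differences from WT are a description. The p-values given with them depend on that selection.

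*RGS20*, an RZ member that acts on Gz, had overlapping levels in all 4 groups. It (chr8:53851808-53959303, plus strand) was at 10.8 and 15.3 CPM in WT, 9.70 and 22.3 CPM in the libraries labelled *ERF* KD, 10.6 and 15.2 CPM in those labelled *CIC* KO and 8.88 and 11.3 CPM in *ERF* KD + *CIC* KO. Replicate B was above replicate A in each of the 4 groups. The log2 difference of the group labelled *ERF* KD from WT was 0.29 ± 0.39 (edgeR adjusted p = 0.7004), and the groups overlapped. Its counts were divided over 5 transcripts with at least 5% in some group. *RGS20-207* held 21.6% in WT and 41.7% in the group labelled *ERF* KD, with 44.6 and 227 estimated counts in the latter's replicates A and B.

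Per unit of transcript length, in TPM, the 7 genes came in a common order in all groups but that labelled *ERF* KD: *RGS10*, *RGS20*, *RGS2*, *RGS5*, *RGS4*, *RGS16* and *POU3F2*. In WT these means ran from 51.4 TPM for *RGS10* over 21.4 TPM for *RGS20* and 2.21 TPM for *RGS4* to 0.0724 TPM for *POU3F2*. *RGS2* (6.86 to 8.004 TPM) and *RGS5* (6.46 to 7.74 TPM) overlapped in WT, as they did in *ERF* KD + *CIC* KO and in the group labelled *ERF* KD. The rank of *RGS5* rests mostly on short processed transcripts with no annotated protein. In WT replicates A and B *RGS5-203* was 67.5% and 81.2% of its TPM, and *RGS5-207* was 23.0% and 6.35%. The protein-coding *RGS5-201* was at 0.0945 and 0.108 TPM there. In the group labelled *ERF* KD *RGS4* came first, with 27.7 and 70.1 TPM, although its range overlapped with those of *RGS10* (29.8 and 42.4 TPM) and *RGS20* (16.3 and 30.05 TPM). *POU3F2* (5.41 and 5.75 TPM) came between *RGS5* (6.70 and 7.77 TPM) and *RGS16* (0.0303 and 0.0593 TPM). The range of *RGS10* there also overlapped with that of *RGS20*, and *RGS16* and *POU3F2* overlapped in both groups with *CIC* KO in their label or name.

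The other *RGS* genes were taken from a list of 21 family members. Of the 20 other than *RGS4*, 13 were tested, and 2 rose in the group labelled *ERF* KD against WT while none fell. The median log2 difference of the 13 was 0.07, against 0.01 over all 14653 genes, of which 4.01% were called higher. *RGS7*, an R7 member, was at 0.665 and 0.815 CPM in WT and at 4.03 and 3.33 CPM in the libraries labelled *ERF* KD, a log2 rise of 2.31 ± 0.43 (edgeR adjusted p = 0.0123). *RGS17*, an RZ member, was at 7.31 and 7.08 CPM in WT and at 14.4 and 14.5 CPM there (1.002 ± 0.21, edgeR adjusted p = 0.0205). In *ERF* KD + *CIC* KO *RGS7* was at 1.14 and 1.35 CPM and *RGS17* at 8.97 and 8.29 CPM, and neither was called against WT (edgeR adjusted p of 0.488 and 0.616). The interaction was -1.95 ± 0.59 for *RGS7* and -0.86 ± 0.30 for *RGS17* and was not called (edgeR adjusted p of 0.131 and 0.178). Both calls were lost when WT replicate A or B was left out (adjusted p of 0.108 and 0.0728 for *RGS7* and of 0.132 and 0.134 for *RGS17*). That of *RGS7* was also lost without labelled *ERF* KD replicate A (0.0588), and that of *RGS17* without labelled *ERF* KD replicate A or B (0.0656 and 0.0708) and under limma on TPM at pseudocounts of 1 and 0.1 (0.0523 and 0.0666). *RGS19*, the most abundant family member in CPM at 33.0 and 39.95 CPM in WT, was at 38.9 and 36.7 CPM in the libraries labelled *ERF* KD. In each group 7 or 8 of the 21 genes were at or under the floor in both libraries, among them *RGS1*, *RGS8*, *RGS13*, *RGS18* and *RGS21*.

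**Figure D3:**
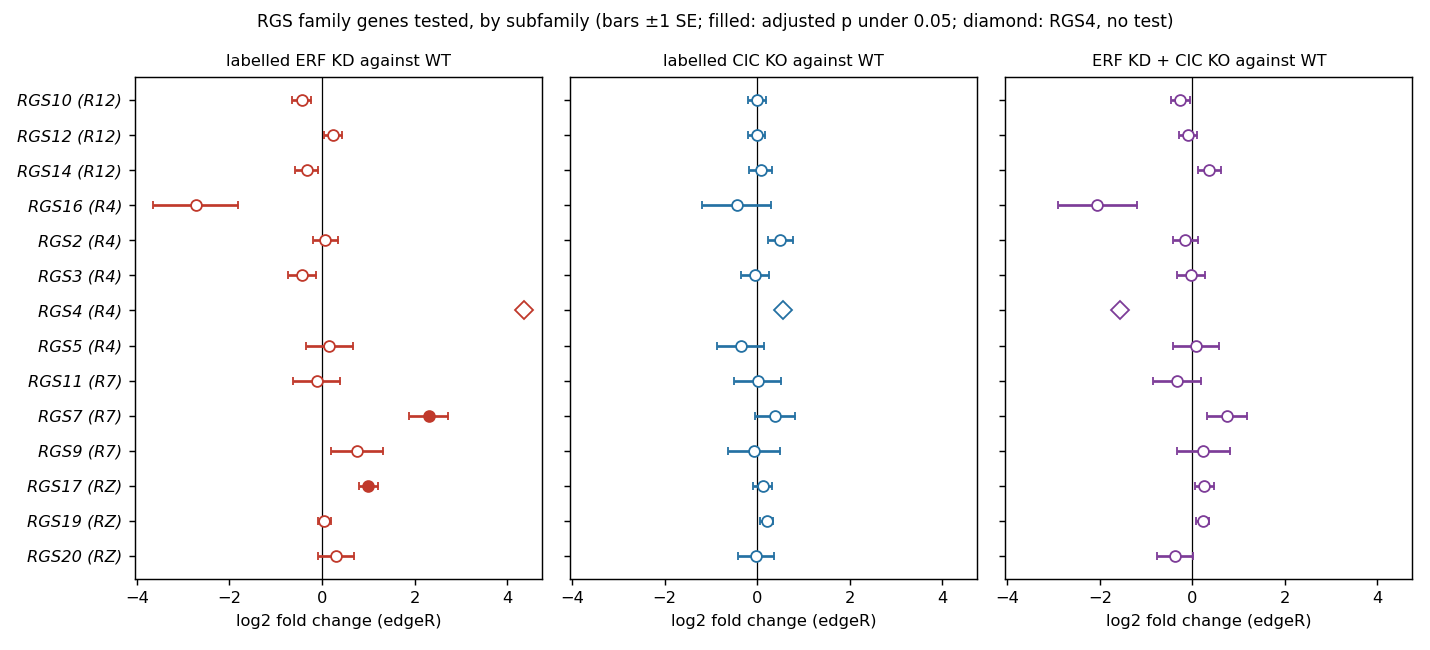
Log2 difference from WT of the 14 *RGS* genes tested, in the groups labelled *ERF* KD (left) and labelled *CIC* KO (middle) and in *ERF* KD + *CIC* KO (right), with bars of 1 SE, filled circles where the adjusted p is under 0.05 and a diamond without error for *RGS4*. In the left panel *RGS7* (2.31) and *RGS17* (1.002) are filled, and no gene is filled in the other 2 panels.

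Among 10 proteins that partner RGS proteins or carry GoLoco motifs, 8 were tested and 2 rose in the group labelled *ERF* KD (4.01% of all genes were called higher), with a median log2 difference of 0.19. *GPSM1*, which binds GDP-bound Gi alpha subunits, was at 14.8 and 17.5 CPM in WT, 41.4 and 41.5 CPM in the libraries labelled *ERF* KD and 16.8 and 15.2 CPM in *ERF* KD + *CIC* KO, a rise of 1.36 ± 0.17 against WT (edgeR adjusted p = 0.00227). *RGS7BP*, the membrane anchor of R7 family complexes, is named here after its values were seen, since its mean was under 1 CPM. It was at 0.237 and 0.153 CPM in WT and at 2.40 and 3.97 CPM in the libraries labelled *ERF* KD, a log2 difference of 3.98. Like *POU3F2*, it passed the filter on low counts through the libraries labelled *ERF* KD alone. Its call, 1 of the 2 above, is therefore a description only. *GNB5*, the G beta 5 partner of *RGS7*, was at 51.9 and 52.0 CPM in WT and at 59.1 and 47.8 CPM in the libraries labelled *ERF* KD (0.04 ± 0.14, edgeR adjusted p = 0.892).

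Of the G-protein subunits themselves, 4 of 13 G beta and gamma genes rose and none fell, and 1 of 13 G alpha genes fell, in the group labelled *ERF* KD against WT, where 4.01% of all genes were called higher and 6.07% lower. The median log2 differences were 0.03 and 0.31. *GNG11* was at 3.46 and 4.18 CPM in WT and at 21.4 and 22.5 CPM in the libraries labelled *ERF* KD (2.52 ± 0.28, edgeR adjusted p = 0.00109). *GNG2* was at 4.89 and 5.71 CPM in WT and at 21.5 and 15.0 CPM there (1.78 ± 0.39, adjusted p = 0.0252), and *GNG12*, the most abundant of these at 200.3 and 183.9 CPM in WT, at 405.6 and 385.5 CPM (1.04 ± 0.13, adjusted p = 0.00180). All 3 encode gamma subunits, as does the last of the 4, *GNG5*. *GNAO1*, which encodes the alpha subunit Go, was at 7.02 and 3.21 CPM in WT and fell to 1.01 and 0.794 CPM in the libraries labelled *ERF* KD (-2.50 ± 0.60, edgeR adjusted p = 0.0352). That call was lost without WT replicate A (adjusted p = 0.220), without labelled *ERF* KD replicate A or B (0.109 and 0.151) and without *ERF* KD + *CIC* KO replicate A or B (0.0573 and 0.0589), with length-scaled counts (0.269) and under limma on TPM at either pseudocount (0.339 and 0.407). The call of *GNG2* was lost without WT replicate A or B (0.157 and 0.107) and without labelled *ERF* KD replicate A (0.104), and in the same 3 settings (0.0519, 0.0586 and 0.0689). With the replicate block 2 G alpha genes rose and 1 fell, and 4 G beta and gamma genes rose and 1 fell, beside 8.39% of all genes called higher and 9.83% lower in that fit.

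Downstream of the receptor, 1 of 9 receptor kinase and arrestin genes fell and none of 12 effector genes (adenylyl cyclases and phospholipases C among them) was called in the group labelled *ERF* KD against WT (4 of the 12 at an unadjusted p under 0.05), where 6.07% of all genes were called lower. The fall was that of *GRK3*, a receptor kinase, from 19.6 and 18.3 CPM to 9.51 and 11.6 CPM (-0.85 ± 0.21, edgeR adjusted p = 0.0382), and the call was lost when any library of either group was left out (adjusted p of 0.202 and 0.137 without WT replicates A and B, and of 0.160 and 0.0701 without labelled *ERF* KD replicates A and B). It was also lost with length-scaled counts (0.0862), under limma on TPM at either pseudocount (0.223 and 0.259) and with only the groups compared (0.0521). With the block 2 of the kinase and arrestin genes fell, and 1 effector gene rose and 1 fell, beside 8.39% of all genes called higher and 9.83% lower. The median log2 differences of the 2 lists were -0.21 and -0.31. No gene of any of these lists was called in the labelled *CIC* KO group or in *ERF* KD + *CIC* KO against WT, where 0% and 0.0682% of all genes were. With the block 1 effector gene fell in *ERF* KD + *CIC* KO, where 1.52% of all genes were called lower.

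**Figure D4:**
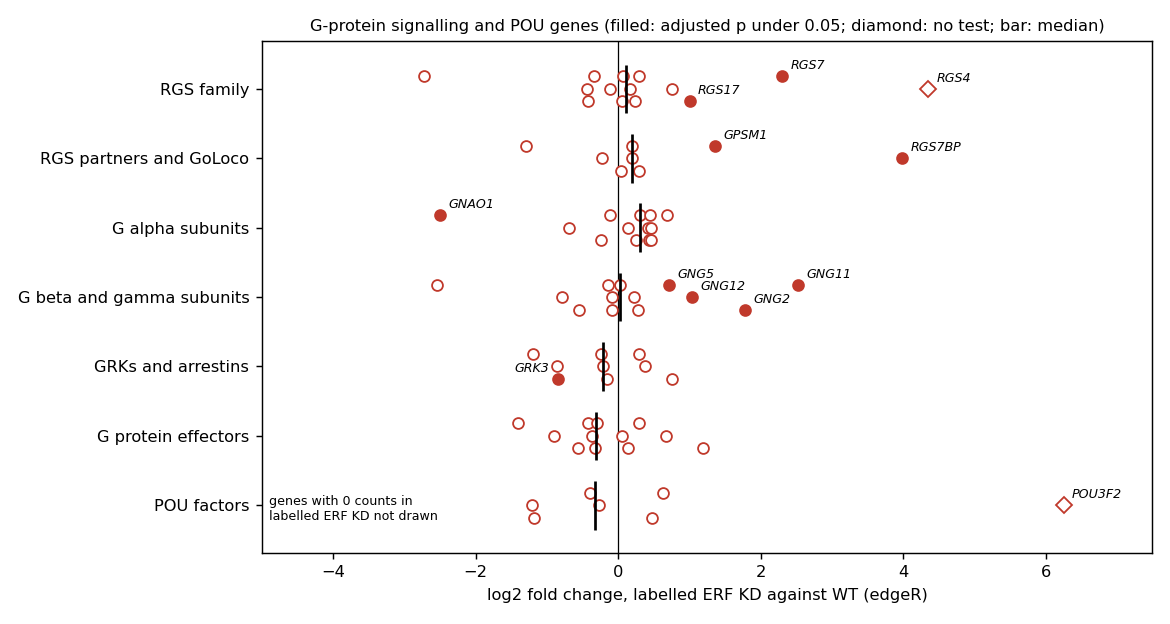
Log2 difference of the group labelled *ERF* KD from WT for each tested gene of 7 lists, with filled circles where the adjusted p is under 0.05, diamonds for the picked genes and a bar at the list's median. The named points to the right of 0 include *RGS7* (2.31), *GPSM1* (1.36) and *GNG11* (2.52), those to the left *GNAO1* (-2.50) and *GRK3* (-0.85), and genes with 0 counts in the group labelled *ERF* KD are not drawn.

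Of 14 further genes of the POU family, 7 were tested and none was called in the group labelled *ERF* KD against WT (1 at an unadjusted p under 0.05 by edgeR). There 10.1% of all genes were called. The median log2 difference of the 7 was -0.39. *POU2F1*, the widely expressed octamer-binding factor, was the most abundant at 50.4 and 35.8 CPM in WT and at 37.7 and 34.0 CPM in the libraries labelled *ERF* KD (-0.27 ± 0.24, edgeR adjusted p = 0.555). *POU3F1*, of the same class as *POU3F2*, was at 0.237 and 0.459 CPM in WT and at 0.0480 and 0.248 CPM there, and *POU3F3* and *POU3F4* were too low to be tested. The 6 tested genes of 12 neuroendocrine and neural markers had a median log2 difference of 0.17, and 1 rose, where 4.01% of all genes were called higher. That gene was *SCG2*, a secretory granule protein, at 10.7 and 43.1 CPM in WT and 155.3 and 235.1 CPM in the libraries labelled *ERF* KD (2.86 ± 0.72, edgeR adjusted p = 0.0425). Its call was lost without WT replicate A (adjusted p = 0.158) and without labelled *ERF* KD replicate A or B (0.0664 and 0.128). *CHGA*, *NEUROD1* and *SOX2* were between 0 and 0.144 CPM in both libraries labelled *ERF* KD, and *SYP* was at 7.97 and 3.57 CPM there (0.90 ± 0.41, adjusted p = 0.227). The other tested markers went both ways and were not called. Their log2 differences were 0.22 ± 0.52 for *CHGB*, 0.12 ± 0.17 for *ENO2*, -1.12 ± 0.62 for *SCG3* and -0.38 ± 0.19 for *TUBB3*.

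Markers of melanocytes and of pericytes and smooth muscle were checked as well. None of 3 melanocyte genes and none of 7 pericyte and smooth muscle genes tested was called in the group labelled *ERF* KD against WT. There 10.1% of all genes were called, so lists this short could hold no call. The median log2 differences were -0.11 and 0.44. With the block 2 of the pericyte and smooth muscle genes rose, beside 8.39% of all genes called higher. *SOX10* had no count in any library. Of 7 epithelial genes tested, 6 fell and none rose, with a median of -3.07, where 6.07% of all genes were called lower. With the block 7 fell, beside 9.83% of all genes called lower in that fit. *CDH1* (E-cadherin) fell from 361.6 and 384.8 CPM to 17.6 and 17.6 CPM (-4.41 ± 0.15, edgeR adjusted p = 1.27e-05), *KRT5* from 139.4 and 233.3 CPM to 15.0 and 19.2 CPM (-3.45 ± 0.59, adjusted p = 0.00857, and 0.0567 without labelled *ERF* KD replicate A) and *EPCAM* from 278.0 and 313.9 CPM to 41.0 and 29.4 CPM (-3.07 ± 0.19, adjusted p = 9.31e-05).

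None of the tested genes around *POU3F2* and *RGS4* was called in the group labelled *ERF* KD against WT without the replicate block, where 10.1% of all genes were. With the block 1 was called higher, beside 8.39% of all genes. The only other protein-coding gene with a start within 500 kb of that of *POU3F2* was *FBXL4*, 113.4 kb away, at 26.3 and 19.7 CPM in WT and 26.5 and 21.4 CPM in the libraries labelled *ERF* KD (0.06 ± 0.21, edgeR adjusted p = 0.900). Around *RGS4* there were *DDR2*, *HSD17B7*, *CCDC190*, *NUF2* and *RGS5*. Of these 4 were tested, and their log2 differences in the group labelled *ERF* KD ran from -0.65 (*HSD17B7*, adjusted p = 0.230) to 1.08 (*DDR2*, adjusted p = 0.158). *NUF2*, which overlaps *RGS5* on the opposite strand, was at 91.2 and 90.7 CPM in WT and 135.1 and 111.5 CPM in the libraries labelled *ERF* KD (0.44 ± 0.13, edgeR adjusted p = 0.0783, and 0.0412 with the replicate block).

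The genes whose log2(CPM + 1) over the 8 libraries was most like that of *POU3F2* were *RTL8B* (Pearson r = 0.996), *SPINK13* (0.995), *ZMYND11* (0.994), *ZC4H2* (0.994) and *ZEB2* (0.993). *ZEB2*, a transcriptional repressor of E-cadherin, was at 3.47 and 4.79 CPM in WT, 40.1 and 38.2 CPM in the libraries labelled *ERF* KD and 3.09 and 2.48 CPM in *ERF* KD + *CIC* KO. *ZC4H2* was between 0.0465 and 0.385 CPM outside the group labelled *ERF* KD and at 5.09 and 3.82 CPM in it. *SPINK13* was at 0 CPM outside that group and at 1.15 and 1.04 CPM in it. Both passed the filter on low counts through the libraries labelled *ERF* KD alone, so their likeness to *POU3F2* was largely set by that filter. The genes most like *RGS4* were *FRMD4A* (0.990), *RBM17* (0.989), *PCDHGB4* (0.985), *P4HA3* (0.985) and *AXL* (0.984). *AXL*, a receptor tyrosine kinase, was at 626.0 and 605.9 CPM in WT and 995.5 and 1078 CPM in the libraries labelled *ERF* KD. The r between *POU3F2* and *RGS4* was 0.963. Such values are common here, since 165 of 13831 protein-coding genes had r over 0.95 with *POU3F2* and 102 with *RGS4*, and the 8 points are 2 high libraries against 6 low ones from shared groups.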

How the data were processed

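RNA was sequenced from 8 PNT2 libraries, and a sequencing company made the libraries. The authors deposited, per the file headers, kallisto's estimated counts and TPM per transcript, and the submitters' processing notes name the build hg19. The study's methods name another program, RSEM, for gene-level expression of the double line, and that conflict could not be settled. The kallisto version, the annotation and strandedness are not given in the sources used here. Expected (estimated) counts as deposited were summed per gene through GENCODE v29 (GRCh38) by transcript ID, which placed 153245 of 180253 transcripts (85.0%) in 33791 genes, and were rounded to whole numbers. Deposited TPM values, which the authors' kallisto run scaled by transcript length, were summed likewise and used for order between genes. Promoter windows came from RefSeq (GRCh38.p14). No column of another sample was present.

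Counts were scaled by TMM, filtered by filterByExpr (14653 genes kept, a cutoff of 0.485 CPM) and fitted over the 4 groups by edgeR 4.0.16 quasi-likelihood in R 4.3.3, with Benjamini-Hochberg adjustment over all tested genes and a threshold of 0.05. The standard error is the log2 difference divided by the square root of F. An exact permutation test of 2 against 2 libraries cannot go below 0.333 and was not used. The scripts were tested on simulated data. Replicates ranked genes alike (Spearman's rho 0.984 to 0.990) and differed beyond sampling noise. The differences between replicates A and B correlated between every 2 groups (0.242 to 0.493). On that ground a fit with the letter as a block was run as an alternative. The main fit did not pair the libraries, and printed errors, p-values and calls are unpaired unless the block is named. What a letter stands for is not stated in the labels or methods. Intervals and floors cover counting error only.

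The members and the gene lists were chosen with earlier results of these data known. Named are the 7 members, detected genes of the *RGS* and POU lists, up to 3 called genes in each direction per other list with a mean of at least 1 CPM, the 5 genes most like *POU3F2* and *RGS4*, neighbours within 500 kb, and transcripts with at least 5% of counts. *RGS7BP*, *GNB5*, *GNG5*, *SYP*, *CHGB*, *ENO2*, *SCG3*, *TUBB3* and the marker, POU and *RGS* genes at or near the floor were named outside that rule, after their values were seen. Alternatives were DESeq2 1.42.0, no filter, a replicate block, length-scaled counts, limma 3.58.1 on log2(TPM + 1) or log2(TPM + 0.1), only the groups compared, and leaving out each library.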

Additional observations from a re-analysis of the deposited data

Results flagged for a closer look

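For 6 of the named list genes the interaction passed the edgeR quasi-likelihood test (adjusted over 14653 genes), which 4.15% of all genes did. These genes were named because they were called in the labelled *ERF* KD group against WT. The interaction uses the same libraries, so the number that passed is no independent support. The level of *ERF* also went against the labels of the single-loss groups. The interaction is the log2 step from the labelled *CIC* KO group to *ERF* KD + *CIC* KO less that from WT to the labelled *ERF* KD group. It was -2.04 ± 0.38 (SE) for *GNG11* (adjusted p = 0.0248), -1.07 ± 0.18 for *GNG12* (0.0156) and -1.69 ± 0.24 for *GPSM1* (0.00856), each of which rose in the labelled *ERF* KD group against WT. It was 1.38 ± 0.29 for *GRK3* (0.0387), which read 10.5 and 12.7 CPM in the labelled *CIC* KO libraries and 18.6 and 14.8 CPM in *ERF* KD + *CIC* KO. For the epithelial genes it was 4.14 ± 0.19 for *CDH1* (9.79e-05) and 3.51 ± 0.26 for *EPCAM* (0.000429). Of the list genes not named in the report, *GNA12* (-0.86 ± 0.19, 0.0468) and *MCAM* (-1.17 ± 0.26, 0.0458) also passed this test. Groups of 2 libraries were too small to be tested for outlying libraries.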

How the results depend on the processing

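No alternative called any of the 5 comparison *RGS* genes, and for them 413 values kept their sign while 28 changed it. Beside the list counts and the call of *NUF2* given with it above, the replicate block changed no other printed call. Genes called in the labelled *ERF* KD group against WT (1477) were 2577 with no filter, 2671 with the replicate block and 620 to 1477 with a library left out. In the labelled *CIC* KO group against WT (0) they were 26 with DESeq2, 123 with no filter, 1 with the block and 0 to 1 with a library left out. In *ERF* KD + *CIC* KO against WT (10) they were 439 with DESeq2, 768 with no filter, 365 with the block, 1 with limma on log2(TPM + 1) and 0 to 8 with a library left out. For the labelled *ERF* KD against the labelled *CIC* KO group (1377) they were 2367 with no filter, 2424 with the block, 829 with only the groups compared and 729 to 1206. For the labelled *ERF* KD group against *ERF* KD + *CIC* KO (1709) they were 2798, 3014 with the block, 1113 with log2(TPM + 1) and 702 to 1638. For the interaction (608) they were 1116 with DESeq2, 1645 with no filter, 1400 with the block, 312 and 314 with log2(TPM + 1) and log2(TPM + 0.1), and 272 to 554. Beyond the change in the number of genes tested or of libraries, the cause was not tested.

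Among the genes with a test, signs changed only for log2 differences that did not pass it. For *POU3F2*, which carries no test, the difference of *ERF* KD + *CIC* KO from WT lay between -5.04 and 0.105. *RGS5* in *ERF* KD + *CIC* KO against WT (0.08) was -0.011 with the block, -0.19 with length-scaled counts, -0.32 with log2(TPM + 1) and -0.38 with log2(TPM + 0.1), and its interaction (0.27) was -0.16, -0.15 and -0.18 with the last 3. *RGS10* in the labelled *CIC* KO group against WT (-0.002) was 0.011 with length-scaled counts. With a library left out, *RGS2* ran from -0.10 to 0.26 in the labelled *ERF* KD group and -0.31 to 0.038 in *ERF* KD + *CIC* KO against WT. *RGS5* ran from -1.03 to 0.11 in the labelled *CIC* KO group, -0.56 to 0.53 in *ERF* KD + *CIC* KO, -0.37 to 0.72 in the labelled *ERF* KD group against the latter, and -0.37 to 0.94 in the interaction. *RGS10* ran from -0.12 to 0.10 in the labelled *CIC* KO group, -0.46 to 0.049 in the labelled *ERF* KD group against *ERF* KD + *CIC* KO and -0.047 to 0.46 in the interaction, and *RGS16* from -1.46 to 0.15 in the labelled *CIC* KO group. *RGS20* ran from -0.43 to 0.78 and -0.30 to 0.26 in the labelled single-loss groups against WT, -0.41 to 0.79 between them, -0.053 to 1.15 against *ERF* KD + *CIC* KO and -1.13 to 0.070 in the interaction. For *POU3F2* the log2 difference of the labelled *ERF* KD group from WT lay between 2.62, with log2(TPM + 1), and 6.30, and for *RGS4* between 3.68 and 4.82, while the interaction of *POU3F2* lay between -12.11 and -2.73 and that of *RGS4* between -6.97 and -5.05. Counts at or under 3 in both libraries, as for *RGS16* in *ERF* KD + *CIC* KO, or in 1, as for *POU3F2* there, limit what can be said of a fall.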
